A study of Homo sapiens with 3 samples.

Results

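SR proteins and heterogeneous nuclear ribonucleoproteins (hnRNPs) are the 2 large families of RNA-binding proteins that steer pre-mRNA splicing. The genes described here were all rows with a protein-coding transcript type and a symbol starting with SRSF or HNRNP, together with the SR-like genes TRA2A and TRA2B and the kinases CLK1 to CLK4, leaving out symbols with a hyphen. This gave 38 of the 30923 genes in the table: 11 SR proteins, 2 TRA2 genes, 4 CLK kinases and 21 hnRNPs. RNA sequencing had been done on QBC-939, a cell line from a human bile duct cancer (cholangiocarcinoma) whose genotype is labelled WT, with 1 library from cells overexpressing miR-182-5p, 1 from cells overexpressing miR-183-5p and 1 from cells given a control called NC. The total RNA was extracted with Trizol, and the library titles of the microRNA groups end in "mim". With 1 library in each of the 3 groups, a culture difference and a treatment difference cannot be told apart and no test between groups was possible, so every ratio below describes these libraries and its 95% interval covers counting error only.

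The libraries held 61709874 counts with miR-182-5p, 67427313 with miR-183-5p and 64516706 with NC. Of these, 16.7%, 16.1% and 13.5% in that order came from the mitochondrial genome. All 8 listed epithelial and biliary markers had a mean FPKM of at least 1, from 1.26 for KRT7 to 510 for KRT18. Of 6 markers of other cell types listed in the table only COL1A1, a collagen chain of fibroblasts, did, at 1197 counts with miR-182-5p, 826 with miR-183-5p and 672 with NC (mean FPKM 1.30), and the part of these markers in any result below was not tested. PECAM1, of endothelium, had 121 counts with miR-182-5p, 70 with miR-183-5p and 69 with NC, 1.83 times NC (1.35 to 2.50) with miR-182-5p, and VIM had 211, 250 and 239 counts. ALB, PTPRC and VWF had at most 43 counts in any library, and COL1A2, DCN and CD3E have no row in the table.

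SR proteins carry RNA-recognition motifs and a tail rich in arginine-serine dipeptides, and many bind enhancer sequences in exons and recruit the spliceosome. CLK kinases in the nucleus and SRPK kinases in the cytoplasm phosphorylate that tail, which governs where SR proteins reside and whether they act. The hnRNPs coat nascent transcripts and often counteract SR proteins by blocking splice sites. Genes of both families are known to limit their own output through poison exons or retained introns, whose transcripts are destroyed by nonsense-mediated decay or kept in the nucleus, and SRSF1 is a known driver of several carcinomas.

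The overexpressed microRNAs pair with messenger RNAs through the seed, bases 2 to 8. Their mature sequences (RefSeq, GRCh38.p14; miR-182-5p at chr7:129770447-129770470 and miR-183-5p at chr7:129774967-129774988, both on the minus strand) are shown with the seed in capitals, because sites for them were searched in the 38 genes.
miR-182-5p: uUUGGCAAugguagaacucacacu
miR-183-5p: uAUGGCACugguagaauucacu

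The matching 7-base DNA sites are TTGCCAA for miR-182-5p and GTGCCAT for miR-183-5p. In the longest 3' UTR of each gene (basic protein-coding transcripts of GENCODE 29, GRCh38), 3 of the 38 genes held a miR-182-5p site and 3 others held a miR-183-5p site, each of them 7.89%. Among 10552 measured genes searched the same way, 15.2% held a miR-182-5p site and 12.2% a miR-183-5p site, and the median 3' UTR length was 1610.5 bases in the 38 genes and 1323.5 in all. Each site is printed below in up to 30 bases of its own strand, 5′ to 3′, with the site in capitals.
HNRNPLL, miR-182-5p site, chr2:38562597-38562626, minus strand: gtttcttattcaTTGCCAAtttaataccta
SRSF6, miR-182-5p site, chr20:43461703-43461732, plus strand: agttaatcaaatTTGCCAAagtctttatct
TRA2B, miR-182-5p site, chr3:185916112-185916141, minus strand: tgttttcagtgtTTGCCAActtgtggtaaa
HNRNPA0, miR-183-5p site, chr5:137750482-137750511, minus strand: aatataatttttGTGCCATgcttgaatgta
SRSF11, miR-183-5p site, chr1:70251923-70251952, plus strand: aggctacagtctGTGCCATgttgatgtaca
SRSF2, miR-183-5p site, chr17:76734973-76735002, minus strand: acttcattttatGTGCCATtttgttgctgt

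The genes with a site for the overexpressed microRNA did not share a direction. In the miR-182-5p library, relative to NC, HNRNPLL stood at 0.889 times (0.837 to 0.943), TRA2B at 0.933 times (0.911 to 0.956) and SRSF6 at 1.06 times (1.03 to 1.08) in CPM, counts divided by the library total. SRSF6 is the only one of the 3 whose site is followed by an A, the base that flanks the strongest class of sites. In the miR-183-5p library, relative to NC, HNRNPA0 stood at 0.782 times (0.762 to 0.802), SRSF11 at 1.05 times (1.03 to 1.08) and SRSF2 at 1.17 times (1.15 to 1.198). HNRNPA0 was also at 0.723 times NC in the miR-182-5p library, for which its 3' UTR holds no site of this kind. Among all 10552 genes searched, the median log2 ratio of the miR-182-5p library to NC was -0.0285 with a miR-182-5p site and -0.0521 without. For the miR-183-5p library and its site these medians were -0.0379 and -0.0464. An effect of the sites was not tested.

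All 38 genes were expressed in every library, and 35 of them had a mean FPKM above 5.30, the median of the 12675 genes with a mean FPKM of at least 1. These 12675 genes are the measured genes used as background throughout, and all 38 passed this filter. FPKM scales fragments to gene length as well as library size, so levels of different genes were compared only in this unit. The hnRNPs ranged from 4.79 FPKM on average over the libraries (HNRNPLL) to 195.9 (HNRNPA1), the SR proteins from 7.82 (SRSF4) to 81.1 (SRSF2), and the CLK kinases from 1.54 (CLK4) to 9.41 (CLK2). HNRNPA1, a repressor that promotes exon skipping, had 179.7 FPKM with miR-182-5p, 200.2 with miR-183-5p and 207.7 with NC. HNRNPA2B1, its relative that also reads N6-methyladenosine, had 139.7 FPKM with miR-182-5p, 141.1 with miR-183-5p and 145.7 with NC. HNRNPAB, HNRNPF and HNRNPK followed at 139.7, 117.7 and 99.7 FPKM on average. The differences between libraries were small beside the differences between genes, and the order of levels of neighbouring genes changed between libraries: HNRNPA2B1 stood above HNRNPAB in the miR-182-5p library and below it in the other libraries. HNRNPA1 rests on 66916, 81413 and 82021 counts and 1084, 1207 and 1271 CPM in the same order of libraries, and HNRNPA2B1 on 94647, 104380 and 104684 counts and 1534, 1548 and 1623 CPM.

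The deposited FPKM rest on gene lengths that follow the union of all annotated exons, which lowers the level of genes with many retained-intron transcripts. The length implied by count and FPKM was 1.202 times the exon union of GENCODE 29 at the median of the 38 genes, and 34 of them lay within 5% of that factor; SRSF1 departed most, at 2.08. For HNRNPU, a nuclear scaffold protein, the exon union was 22.5 kb of a gene span of 23.9 kb, so that its 27.4 FPKM on average came from 43724 counts with miR-182-5p, 49884 with miR-183-5p and 48805 with NC. CLK3 had an exon union of 20.4 kb. Ratios between libraries do not depend on these lengths.

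**Figure D1:**
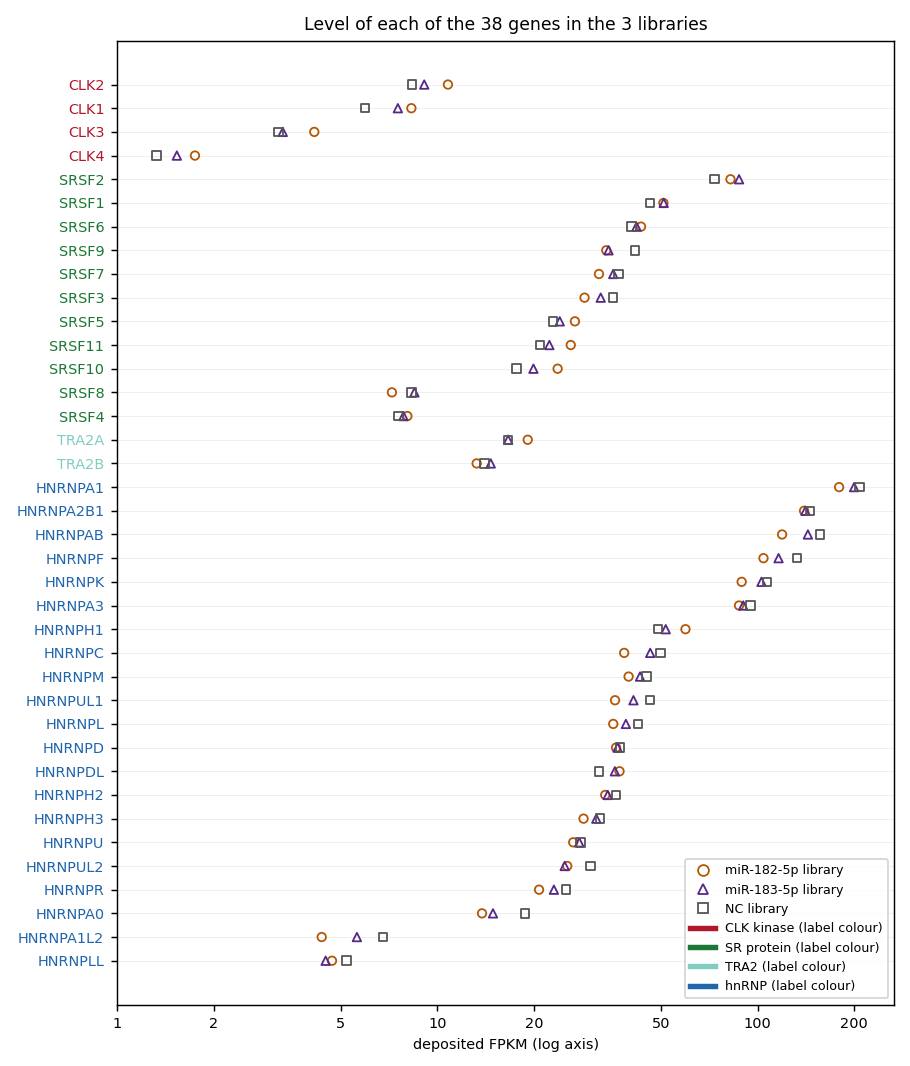
Deposited FPKM (log axis) of the 38 genes in the miR-182-5p library (circles), the miR-183-5p library (triangles) and the NC library (squares), ordered by mean level within each group. Levels run from below 2 FPKM for CLK4 to about 200 for HNRNPA1, and the 3 marks of a gene lie close together beside that range.

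The miR-182-5p library was first set against the NC library. All 4 CLK kinases were higher, most hnRNPs were lower, and the SR proteins were divided. Of the 38 genes, 7 were at least 1.2-fold higher in CPM (18.4%) and 11 at least 1.2-fold lower (28.9%), where 22.1% and 20.5% of all 12675 measured genes passed those folds. At least 1.5-fold, 0 were higher and 1 was lower, against 8.04% and 2.79% of all measured genes. The 1.2-fold split of 7 higher and 11 lower was 7 and 7 without mitochondrial counts in the totals, where 26.4% of all measured genes were higher and 15.4% lower. It was 5 and 17 on the TPM scale, where these shares were 17.9% and 28.4%. Among genes with a mean FPKM of at least 10, 3 of 30 were higher and 10 lower, against 9.51% and 32.2% of all such genes, so the share of lower genes was near the background of that level. After the median of genes of similar FPKM was subtracted, an alternative chosen after the values were seen, 11 were higher and 2 lower, against 22.3% and 16.3%. The median log2 CPM ratio of the 38 genes was -0.14, against -0.02 for all measured genes. Above a mean FPKM of 10 the medians were -0.165 and -0.149, and after the subtraction that of the 38 genes turned to 0.0498.

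The CLK kinases phosphorylate SR proteins in nuclear speckles. CLK1 had 50.9 CPM with miR-182-5p, 46.2 with miR-183-5p and 37.0 with NC (3140, 3114 and 2385 counts). It was the highest of the 38 genes relative to NC, at 1.38 times (1.30 to 1.45) in the miR-182-5p library and 1.25 times (1.18 to 1.32) in the miR-183-5p library. In FPKM, CLK1 stood at 8.30, 7.53 and 5.93 in the same order. CLK2 had 46.8 CPM with miR-182-5p, 39.5 with miR-183-5p and 36.8 with NC. Its ratio to NC was 1.27 (1.21 to 1.35) with miR-182-5p and 1.07 (1.02 to 1.14) with miR-183-5p. CLK3 had 100.1, 79.8 and 78.6 CPM in the same order of libraries, and only the miR-182-5p library stood apart, at 1.27 times NC (1.23 to 1.32). In the miR-183-5p library the interval of CLK3 included 1, at 1.02 (0.977 to 1.06). These ratios of CLK3 rest on 6179, 5380 and 5068 counts and 4.13, 3.29 and 3.19 FPKM. CLK4, the least abundant, had 16.5, 14.5 and 12.8 CPM in the same order and stood at 1.29 times NC (1.18 to 1.42) with miR-182-5p and 1.14 times (1.03 to 1.25) with miR-183-5p. CLK4 had the fewest reads of the 4, with 1019, 977 and 823 counts and 1.75, 1.54 and 1.33 FPKM. With miR-182-5p their median log2 ratio was 0.36, and all 4 remained above 1 under each of the scalings tried in that comparison.

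With miR-182-5p, SRSF10 and SRSF11 were the highest SR proteins relative to NC and SRSF9 and SRSF3 the lowest. SRSF10, which acts as a general splicing repressor when dephosphorylated, had 333.8 CPM with miR-182-5p, 280.3 with miR-183-5p and 252 with NC. The ratio to NC was 1.32 (1.30 to 1.35) with miR-182-5p and 1.11 (1.09 to 1.14) with miR-183-5p. SRSF10 rests on 20597, 18901 and 16270 counts and 23.7, 19.95 and 17.7 FPKM. SRSF11, an SR-related protein with an arginine-serine domain, had 262, 225 and 213 CPM in the same order and stood at 1.23 times NC (1.202 to 1.26) in the miR-182-5p library. SRSF5 had 171 CPM with miR-182-5p, 153 with miR-183-5p and 148 with NC, a ratio of 1.15 (1.12 to 1.18) for miR-182-5p over NC. All 3 were highest in the miR-182-5p library and lowest in the NC library.

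The SR proteins SRSF2, SRSF1, SRSF6 and SRSF4 were nearer to the NC level in the miR-182-5p library, whereas with miR-183-5p SRSF2 was the SR protein furthest above NC. SRSF2, an exon enhancer-binding protein that also acts in transcription elongation, had 290.2 CPM with miR-182-5p, 308 with miR-183-5p and 263 with NC. It is the SR protein with the highest FPKM, with 17907, 20801 and 16951 counts and 82.3, 87.5 and 73.5 FPKM. SRSF1, the prototype of the family, had 348, 349 and 321 CPM, and its ratio to NC was 1.09 in both microRNA libraries. It overlaps the gene AC015813 on its strand, whose counts differed between the microRNA libraries, so this equality depends on how reads were assigned. SRSF2 and SRSF1 were the only 2 of the 38 genes with the lowest CPM in the NC library and the highest in the miR-183-5p library. For SRSF1 the microRNA libraries were nearly equal, at 0.998 (0.980 to 1.02) for miR-182-5p over miR-183-5p. Without mitochondrial counts SRSF1 was slightly higher with miR-182-5p. SRSF6 and SRSF4 stood at 1.06 (1.03 to 1.08) and 1.05 (1.01 to 1.09) times NC in the miR-182-5p library.

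The lower SR proteins include a pair that links splicing to mRNA export and 3' end choice, SRSF3 and SRSF7. SRSF3 had 243 CPM with miR-182-5p, 273 with miR-183-5p and 302 with NC, a ratio to NC of 0.804 (0.787 to 0.821) with miR-182-5p and 0.903 (0.884 to 0.921) with miR-183-5p. SRSF7 had 153, 169.7 and 179 CPM in the same order, at 0.858 times NC (0.835 to 0.882) with miR-182-5p. SRSF9 had 147 CPM with miR-182-5p, 149.8 with miR-183-5p and 184 with NC, so both microRNA libraries lay below NC, at 0.801 (0.779 to 0.823) and 0.814 (0.792 to 0.836). SRSF9 rests on 9102, 10102 and 11879 counts and 33.7, 34.2 and 41.5 FPKM. SRSF8, a close relative of SRSF2, stood at 0.858 times NC (0.810 to 0.909) with miR-182-5p and at 1.01 (0.955 to 1.06) with miR-183-5p. Over the family, 7 of 11 were above 1 and 4 below in the miR-182-5p library, with a median log2 ratio of 0.08. Of all 12675 measured genes, 6020 were above 1 and 6654 below. All 11 intervals excluded 1, as did those of many measured genes, 4452 above 1 and 5017 below. The counts of 7 and 4 were the same under every scaling of the counts or FPKM tried, but without the 3 that overlap another gene on their strand it was 4 and 4, with a median of -0.07.

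TRA2A and TRA2B, which bind GAA-rich exon enhancers, differed from each other in direction. TRA2A had 79.9 CPM with miR-182-5p, 69.3 with miR-183-5p and 70.2 with NC, a ratio of 1.14 (1.09 to 1.18) for miR-182-5p over NC. TRA2B had 206, 228 and 220.5 CPM in the same order, a ratio of 0.933 (0.911 to 0.956) for miR-182-5p over NC. Neither was past 1.2-fold in any of the 3 comparisons.

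**Figure D2:**
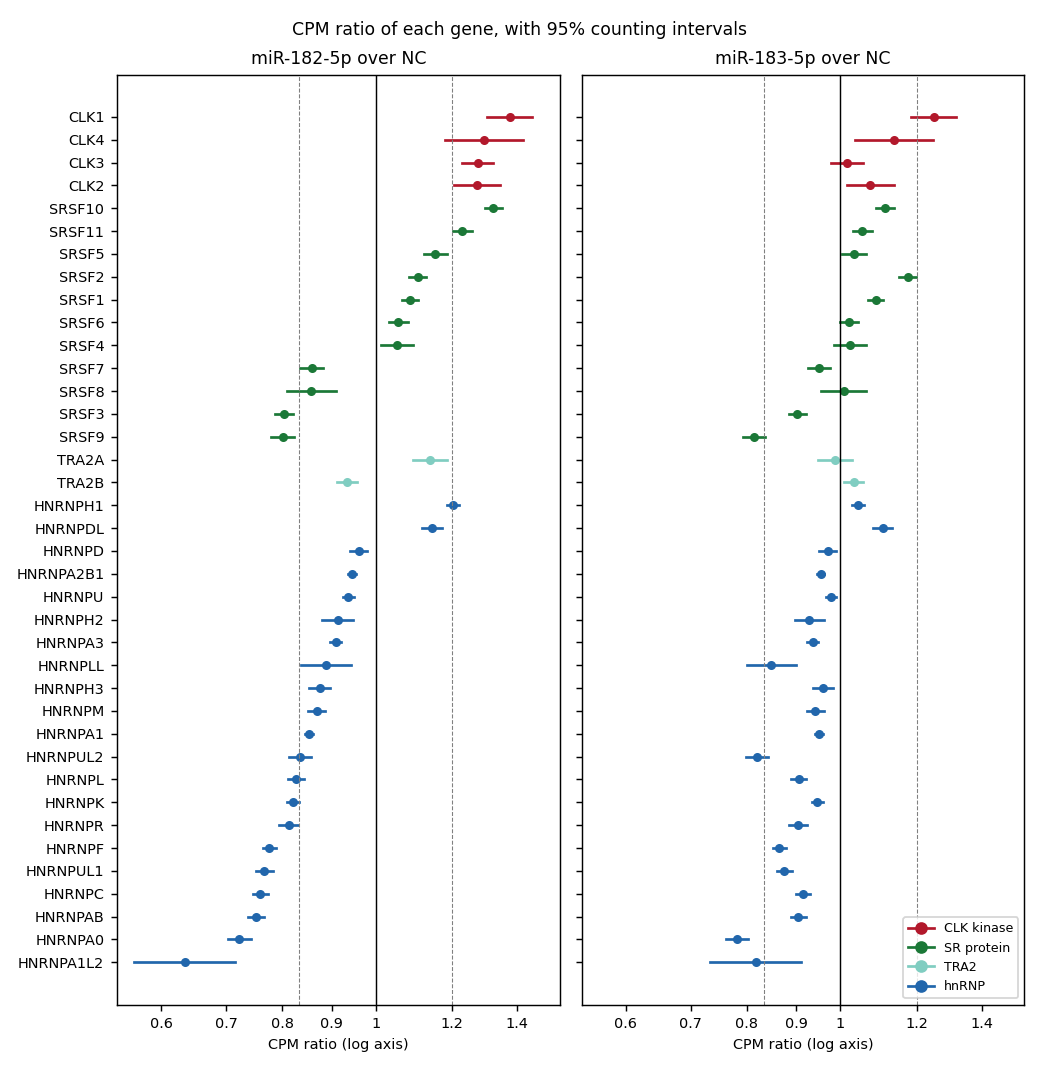
CPM ratio of each gene over NC (log axis) in the miR-182-5p library (left) and the miR-183-5p library (right), with bars for the exact 95% interval of counting error, dashed lines at 1.2-fold in each direction and colours for the gene groups. The 4 CLK kinases lie right of 1.2 with miR-182-5p, and of the 21 hnRNPs only HNRNPH1 and HNRNPDL lie right of 1 in either panel.

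Of the 21 hnRNPs, 19 were below NC and 2 above in the miR-182-5p library, all with intervals that exclude 1, where 6654 of the 12675 measured genes were below 1. Intervals lay wholly below 1 for 5017 of all measured genes and wholly above 1 for 4452. At least 1.2-fold, 9 hnRNPs were lower (42.9%) and 1 higher (4.76%), against 20.5% and 22.1% of all measured genes. Among genes with a mean FPKM of at least 10, 8 of 19 hnRNPs were lower and 1 higher, against 32.2% and 9.51%. Their median log2 CPM ratio was -0.23 and their summed CPM 0.888 times that of NC. Measured genes of high level in general had lower ratios: those with a mean FPKM of 20 to 50 had a median of -0.18, those of 50 to 100 one of -0.24 and those of at least 100 one of -0.28, whereas genes of 1 to 5 FPKM had a median of 0.09. Once the median of genes of similar FPKM was subtracted, 13 of the 21 were below 0 and 8 above, with a median of -0.04. By the same subtraction the median of the 11 SR proteins was 0.26 and that of the 4 CLK kinases 0.34, and the split of SR proteins stayed at 7 above and 4 below.

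With miR-182-5p the lowest hnRNPs relative to NC were HNRNPA1L2, HNRNPA0, HNRNPAB and HNRNPC. HNRNPA1L2, the only one of the 38 genes past 1.5-fold, had 7.08, 9.12 and 11.2 CPM in the same order of libraries, from 437, 615 and 720 counts and 4.35, 5.61 and 6.76 FPKM, at 0.635 times NC (0.562 to 0.716) with miR-182-5p and 0.817 (0.733 to 0.911) with miR-183-5p. HNRNPA0, which binds AU-rich elements of messenger RNAs, had 142 CPM with miR-182-5p, 154 with miR-183-5p and 197 with NC, a ratio of 0.723 (0.703 to 0.743) for miR-182-5p over NC. HNRNPA0 rests on 8783, 10378 and 12705 counts and 13.8, 14.9 and 18.8 FPKM. HNRNPAB, an A/B-type hnRNP, had 299 CPM with miR-182-5p, 360.1 with miR-183-5p and 398 with NC, a ratio of 0.752 (0.738 to 0.766) for miR-182-5p over NC. HNRNPAB rests on 18469, 24281 and 25681 counts and 119, 144 and 156 FPKM. HNRNPC, which binds uridine tracts and keeps Alu-derived exons out of messages, had 332, 400.0 and 437 CPM in the same order, a ratio of 0.760 (0.746 to 0.773). HNRNPC rests on 20491, 26973 and 28203 counts and 38.3, 46.2 and 49.8 FPKM. In all 3 genes the miR-182-5p library was lowest and the NC library highest.

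HNRNPUL1 (0.767), HNRNPF (0.776), HNRNPR (0.812), HNRNPK (0.822) and HNRNPL (0.827) also lay at least 1.2-fold below NC with miR-182-5p. HNRNPF, which binds runs of guanine, had 402 CPM with miR-182-5p, 448 with miR-183-5p and 518 with NC. HNRNPF rests on 24816, 30202 and 33422 counts and 104, 116 and 133 FPKM. HNRNPK, which binds cytosine-rich tracts, had 538, 620.5 and 655 CPM in the same order, and HNRNPL, which binds CA repeats, 286, 313 and 346 CPM. HNRNPK rests on 33226, 41837 and 42278 counts and 89.2, 103 and 107 FPKM. HNRNPUL2, at 0.835, lay just short of the fold with miR-182-5p, but with miR-183-5p it stood at 0.820 (0.799 to 0.841). HNRNPUL2 had 163, 159.8 and 195 CPM in the same order, from 10046, 10774 and 12576 counts and 25.4, 24.98 and 30.0 FPKM. The abundant HNRNPA1 (0.853), HNRNPA3 (0.908), HNRNPU (0.937) and HNRNPA2B1 (0.945), and HNRNPM (0.868), HNRNPH3 (0.875), HNRNPH2 (0.913) and the mRNA decay factor HNRNPD (0.960), were lower by less.

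HNRNPH1 and HNRNPDL were the exceptions among the hnRNPs. HNRNPH1, like HNRNPF a binder of guanine runs, had 669 CPM with miR-182-5p, 580.2 with miR-183-5p and 556 with NC, a ratio of 1.203 (1.19 to 1.22) for miR-182-5p over NC and 1.04 (1.03 to 1.06) for miR-183-5p over NC. HNRNPDL, a relative of HNRNPD with a known self-limiting splice event in its 3' UTR, had 240.4, 232 and 210.2 CPM in the same order, ratios to NC of 1.14 (1.12 to 1.17) and 1.11 (1.08 to 1.13). In CPM the close relatives thus differed: HNRNPH1 was above NC and HNRNPH2, HNRNPH3 and HNRNPF below it, and HNRNPDL was above NC and HNRNPD below it. With miR-182-5p, subtracting the median of genes of similar FPKM put HNRNPD (log2 0.122) and HNRNPH2 (0.0496) above 0 as well. HNRNPH3 and HNRNPF stayed below 0. HNRNPH1 was no longer past 1.2-fold with miR-182-5p under TMM, DESeq2's size factors or on the TPM scale.

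**Figure D3:**
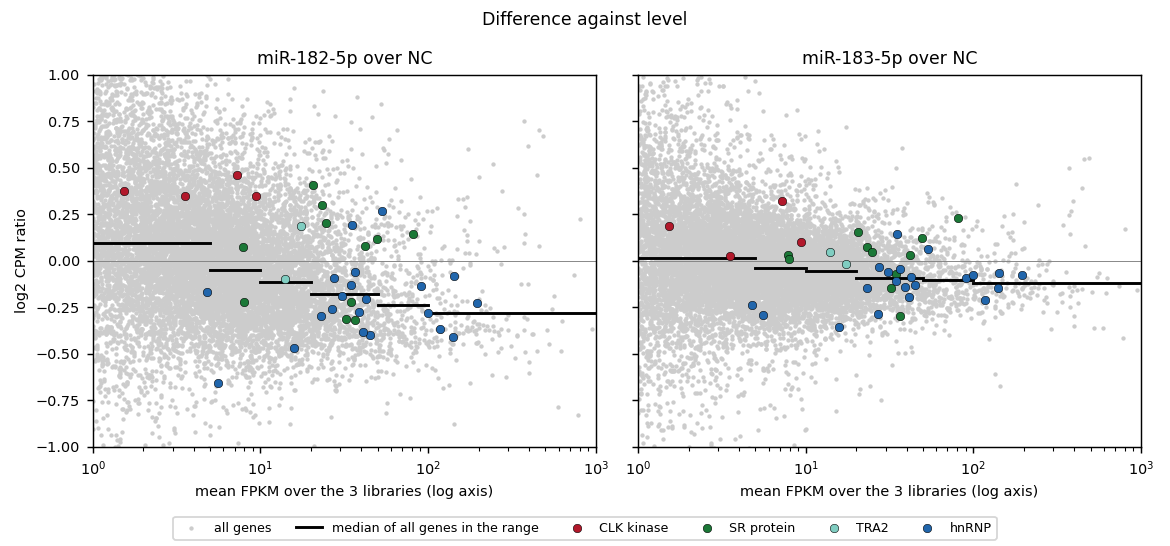
Log2 CPM ratio over NC against the mean FPKM of the 3 libraries (log axis) for all measured genes that lie within the drawn axis limits (grey) and the 38 genes (coloured by group), with black lines at the median of all genes in each range of FPKM. With miR-182-5p the black lines step down from 0.09 at 1 to 5 FPKM to -0.28 at 100 and above; the hnRNPs lie around them and the CLK kinases and 7 SR proteins above them.

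In the miR-183-5p library the differences from NC were smaller. At least 1.2-fold, 1 of the 38 genes was higher (CLK1) and 4 were lower (HNRNPA0, SRSF9, HNRNPA1L2 and HNRNPUL2), that is 2.63% and 10.5%, against 10.5% and 10.7% of all measured genes. At least 1.5-fold, 0 were higher and 0 lower, against 3.03% and 1.96%. The 1.2-fold split was 2 higher and 1 lower without mitochondrial counts, against 13.1% and 7.67% of all measured genes, and 0 and 6 on the TPM scale, against 7.91% and 17.2%. The median log2 CPM ratio was -0.06 for the 38 genes and -0.03 for all measured genes. Above a mean FPKM of 10 it was -0.0740 for 30 of the genes and -0.0754 for all such genes, and subtracting the median of genes of similar FPKM turned it to 0.0350. The hnRNPs were 2 above NC (HNRNPDL and HNRNPH1) and 19 below, with a median of -0.11. Of the 12675 measured genes, 5421 were above 1 and 7250 below. HNRNPU also stood above NC without mitochondrial counts. After the subtraction 10 hnRNPs were above 0 and 11 below, with a median of -0.0143. All 4 CLK kinases were above NC in CPM, although CLK3 lay below 1 on the TPM scale. SR proteins had a median of 0.03 with 8 above and 3 below, but -0.03 with 4 above and 7 below on the TPM scale. Both comparisons share the NC library, so a value that is high or low in NC moves both ratios.

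The direct comparison of the miR-182-5p and miR-183-5p libraries does not use NC. In it 1 of the 38 genes was at least 1.2-fold higher (2.63%) and 3 at least 1.2-fold lower (7.89%) in the miR-182-5p library, against 16.2% and 9.07% of all measured genes. At least 1.5-fold, 0 were higher and 0 lower, against 3.98% and 1.46%. The 1.2-fold split was 2 and 1 without mitochondrial counts, against 17.3% and 8.3% of all measured genes, and 0 and 5 under TMM, against 11.5% and 16%. The median log2 CPM ratio was -0.03 for the 38 genes and 0.02 for all measured genes, and the subtraction turned that of the 38 genes to 0.0276. The higher one was CLK3 at 1.25 (1.21 to 1.30), and the lower ones were HNRNPA1L2 at 0.776 (0.685 to 0.879), HNRNPC at 0.830 (0.815 to 0.845) and HNRNPAB at 0.831 (0.815 to 0.847). All 4 CLK kinases were higher with miR-182-5p: CLK2 at 1.19 (1.13 to 1.25), CLK4 at 1.14 (1.04 to 1.25) and CLK1 at 1.10 (1.05 to 1.16). Of 21 hnRNPs, 17 were lower, where 6719 of the 12675 measured genes were above 1 and 5955 below. After the subtraction all 4 CLK kinases were above 0, and 8 hnRNPs were above 0 and 13 below, with an hnRNP median of -0.0205. SRSF10 at 1.19 (1.17 to 1.21), SRSF11 at 1.17 (1.14 to 1.19), HNRNPH1 at 1.15 (1.14 to 1.17) and TRA2A at 1.15 (1.11 to 1.199) also stood above 1 in this comparison. SRSF1 was at 0.998 (0.980 to 1.02), an interval that includes 1.

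Most genes described here had 1 of 2 opposite orders of the 3 libraries. In 20 genes, 17 hnRNPs and the SR proteins SRSF3, SRSF7 and SRSF9, CPM was lowest in the miR-182-5p library and highest in NC. In 11 genes, the 4 CLK kinases, SRSF4, SRSF5, SRSF6, SRSF10, SRSF11, HNRNPDL and HNRNPH1, it was lowest in NC and highest in the miR-182-5p library. The remaining 7 genes had other orders. Some of these orders lay within counting error. Between the microRNA libraries the intervals of HNRNPD, HNRNPH2, SRSF4 and SRSF9 included 1, as did those of CLK3, SRSF4 and SRSF6 for miR-183-5p over NC. Orders also changed with the scaling: on the TPM scale CLK3, SRSF4, SRSF5 and SRSF6 lay below NC with miR-183-5p. Without mitochondrial counts HNRNPU lay above NC with miR-183-5p. How often these orders occur among all measured genes was not tested, so the counts have no background beside them. Measured genes with a mean FPKM of 20 to 50 had a median log2 ratio to NC of -0.18 with miR-182-5p and -0.09 with miR-183-5p. Those of 1 to 5 FPKM had medians of 0.09 and 0.01 in the same order.

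Many of the 38 genes are annotated with transcripts that make no protein. The table lists a retained-intron transcript type for 28 of them (73.7%) and a nonsense-mediated decay type for 27 (71.1%), against 59.1% and 39.1% of 10581 measured protein-coding genes. They also have more annotated transcripts, 11 at the median against 6. The presence of a retained-intron type did not separate the directions: with miR-182-5p the median log2 ratio to NC was -0.12 in the 28 genes with it and -0.16 in the 10 without. Counts per gene do not show which transcripts the reads came from, so productive and unproductive transcripts of these genes cannot be told apart here.

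The proteins that work with SR proteins and hnRNPs gave the following counts with miR-182-5p, relative to NC, against the same 22.1% higher and 20.5% lower of all measured genes. Among 40 SR-related and nuclear speckle genes, 10 were at least 1.2-fold higher (25%) and 3 lower (7.5%), with a median log2 ratio of 0.07 that was 0.01 under TMM and -0.0013 on the TPM scale. RSRP1 had 4281 counts with miR-182-5p, 3849 with miR-183-5p and 2775 with NC, 1.61 times NC in the miR-182-5p library. The arginine- and serine-rich PNISR stood at 1.497, the arginine- and glutamate-rich ARGLU1 at 1.405, and the lower ones were RSRC1 at 0.651, U2AF1, the small subunit of the factor that recognises the 3' splice site, at 0.781 and SCAF1 at 0.798. RSRP1 overlaps other genes on its strand, and human U2AF1 has a near-identical copy, so these values are uncertain, as are those of RBM5, TIA1, PPM1G and RBM8A, which overlap other genes on their strand.

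Core genes of the spliceosome's small nuclear ribonucleoproteins were mostly lower: of 48, 3 were at least 1.2-fold higher (6.25%) and 18 lower (37.5%), with a median of -0.21. The Sm protein SNRPE had 1937 counts with miR-182-5p, 2607 with miR-183-5p and 3006 with NC, 0.674 times NC with miR-182-5p. PRPF4 at 0.675 and LSM3 at 0.683 were the next lowest, while SF3A2 at 1.29, PRPF38B at 1.26 and PRPF3 at 1.25 were higher. After subtraction of the median of genes of similar FPKM the 48 genes had a median of -0.05, with 16 above 0 and 32 below.

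Of 15 kinases, phosphatases and import factors of SR proteins, 1 was at least 1.2-fold higher (6.67%), DYRK2 at 1.27, and 4 were lower (26.7%). Among all measured genes these shares were 22.1% and 20.5%. The lowest of the 15 were the phosphatase genes PPP1CA at 0.732, PPM1G at 0.761 and PPP1CC at 0.779. The cytoplasmic SR kinases SRPK1 at 0.849 (0.826 to 0.873) and SRPK2 at 0.924 were below NC. The SR kinase PRPF4B at 1.197 (1.17 to 1.23) was above it, as was SRPK3 at 1.37 (1.15 to 1.64), whose mean FPKM of 0.655 was under the filter. The import receptor TNPO3 was at 0.879 and TNPO2 at 1.11. The SRPK and TNPO genes were singled out after their values were seen. Other splicing regulators, 40 identifiers, included 6 higher (15%) and 8 lower (20%) ones, both shares below those of all measured genes. Among them were the helicase DDX17 at 1.44, RBM5 at 1.35 and TIA1 at 1.33, and YBX1 at 0.706 and ELAVL1 at 0.758. MATR3 has 2 identifiers that overlap and stood at 0.346 and 1.25, while the sum of both was 0.861 times NC. Of 17 genes of nonsense-mediated decay and the exon junction complex, 0 were at least 1.2-fold higher. Lower were 3 (17.6%, below the share of all measured genes), namely MAGOH at 0.667, EIF4A3 at 0.788 and RBM8A at 0.813.

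The same lists in the miR-183-5p library, relative to NC, had 3 higher and 3 lower speckle genes (7.5% each), 0 higher and 4 lower spliceosome core genes (8.33%), and 0 higher and 1 lower gene of SR kinases, phosphatases and import (6.67%). There were 2 higher (5%) and 1 lower (2.5%) other regulators, and 0 higher and 1 lower decay gene (5.88%). All these shares were below the 10.5% higher and 10.7% lower of all measured genes. RSRP1 was the highest speckle gene at 1.33, and PPP1CA was the lower phosphatase gene at 0.816. The identifiers of MATR3 stood at 1.64 and 0.384, the other way round from the miR-182-5p library, and their sum at 0.930. The median log2 ratios of the 5 lists lay between -0.09 and 0.05.

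**Figure D4:**
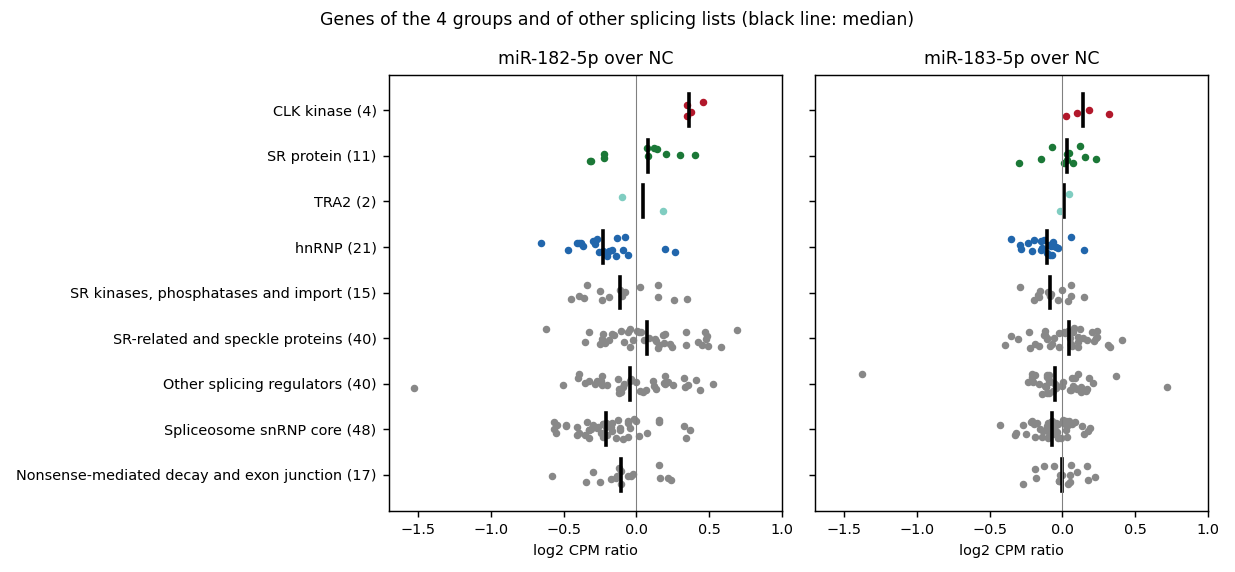
Log2 CPM ratio over NC of single genes (dots, spread vertically at random for legibility) in the 4 groups and in 5 lists of other splicing genes, with the number of measured identifiers in parentheses and a black line at the median, for the miR-182-5p library (left) and the miR-183-5p library (right). With miR-182-5p the medians are 0.36 for CLK kinases, 0.08 for SR proteins, -0.23 for hnRNPs and -0.21 for the spliceosome core.

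Some values rest on reads that could belong to another gene. Among the 38 genes, 12 overlap another gene of the table on the same strand, mostly small or weakly counted ones. AC015813, which overlaps SRSF1, had 267 counts with miR-182-5p, 1092 with miR-183-5p and 1101 with NC. That was 1.24%, 4.65% and 5.32% of the SRSF1 counts, and which gene these reads came from was not tested. The read-through transcript HNRNPUL2-BSCL2 had 2975 counts with miR-182-5p, 3909 with miR-183-5p and 2799 with NC, and HNRNPUL2 with it stood at 0.885 times NC with miR-182-5p and 0.914 with miR-183-5p, no longer past 1.2-fold. HNRNPH2 with RPL36A-HNRNPH2 stood at 0.883 and 0.910 times NC. HNRNPA1L2 is an intronless near-copy of HNRNPA1 with few counts beside the 66916 to 82021 of HNRNPA1, and reads of HNRNPA1 could be placed there. The table holds 30 pseudogenes of HNRNPA1, which together had 3122, 3782 and 4512 counts in the same order, 0.723 times NC (0.691 to 0.757) with miR-182-5p where HNRNPA1 itself stood at 0.853. Among the 38 genes, 17 overlap genes on the opposite strand, and the strand setting of the counts is not given in the sources used here.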

How the data were processed

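Gene counts and FPKM of 3 RNA-seq libraries, 1 per group, came from a single table. The counts are whole numbers as deposited by the authors, and the FPKM were computed by the authors, per the file headers, which give no formula. The submitters' processing notes name cutadapt 1.9 and FastQC and the mouse build GRCm38, whereas the 30923 identifiers are human Ensembl ones. For the aligner, counting program and strand setting, nothing is given in the sources used here.

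Counts were divided by the library total to give CPM. Genes with a mean FPKM of at least 1 over the 3 libraries were measured. With 1 library a group, "higher" and "lower" at 1.2-fold or 1.5-fold are rules of size on the CPM ratio. Intervals are exact 95% Clopper-Pearson intervals, conditional on the sum of both counts (scipy 1.17.1). The lowest count of any of the 38 genes was 437 and the highest 104684. All measured genes form the background. Scaling was also done with TMM (edgeR 4.0.16) and median-of-ratios size factors (DESeq2 1.42.0). Ratios and intervals were tested on simulated data. Seed sites were searched in GENCODE 29. Values in full are those of genes past 1.5-fold, the 5 highest in FPKM and the 4 furthest from 1 in each direction in each comparison with NC, and up to 3 genes per list and direction; others are named as members of their group. The genes and lists were chosen with earlier results of these data known.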

Additional observations from a re-analysis of the deposited data

How the results depend on the processing

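The counts and medians of the 38 genes were recomputed under 8 planned settings and 1 added after the data were seen. With miR-182-5p over NC, the 18 genes past 1.2-fold became 14 (7 higher, 7 lower) without mitochondrial counts, 20 (5 and 15) under TMM, 21 (5 and 16) under DESeq2's size factors, 22 (5 and 17) on the TPM scale and 13 (11 and 2) after subtracting the median of genes of similar FPKM. In the same settings the shares of all measured genes called higher and lower were 26.4% and 15.4%, 18.5% and 27%, 18.4% and 27.3%, 17.9% and 28.4%, and 22.3% and 16.3%, so the background moved with the scaling. The 1 gene past 1.5-fold, HNRNPA1L2, was lost (0) with log2(FPKM + 1), against 3.94% higher and 1.31% lower of all measured genes. HNRNPA1L2 itself was not among the 30 genes above a mean FPKM of 10, where 0 passed, against 1.72% and 2.16%. Nor was it among the 26 genes without overlaps, where 0 passed, against 8.04% and 2.79%. After the subtraction 1 was higher and 1 lower, against 7.33% and 2.89%. The median of -0.14 became -0.0795 without mitochondrial counts, -0.19 under TMM, -0.20 under DESeq2's size factors and -0.21 on the TPM scale, and reversed to 0.0498 after the subtraction. With miR-183-5p over NC, the 5 genes past 1.2-fold became 3 without mitochondrial counts, against 13.1% higher and 7.67% lower of all measured genes. They were also 3 with log2(FPKM + 1), against 6.95% and 5.67%, and 3 after the subtraction, against 11.4% and 9.15%. Above a mean FPKM of 10 they were 3 of 30, against 2.84% and 8.14% of all such genes. Without overlapping genes they were 2 of 26, against 10.5% and 10.7% of all measured genes. The median of -0.06 became -0.0204 without mitochondrial counts and -0.12 on the TPM scale, and reversed to 0.0350 after the subtraction. Between the microRNA libraries, the 4 genes past 1.2-fold became 2 of 30 with a mean FPKM of at least 10. Both were lower with miR-182-5p, against 4.21% higher and 8.94% lower of all such genes. The median of -0.03 became -0.10 under TMM, -0.10 under DESeq2's size factors and -0.0753 above a mean FPKM of 10, and reversed to 0.0276 after the subtraction. The subtraction removes, by construction, the lower ratios of highly expressed genes; the cause of the other changes was not tested. Scalings alone changed the side of 1 for 0 of 38 genes with miR-182-5p over NC, 8 with miR-183-5p over NC and 6 between the microRNA libraries. With the subtraction included, 7, 16 and 13 genes changed side in the same order of comparisons. The 7 with miR-182-5p over NC were HNRNPA1, HNRNPA2B1, HNRNPA3, HNRNPD, HNRNPH2, HNRNPU and TRA2B. No paired analysis was possible because each group has 1 library. Counting error left intervals that include 1 for 5 of the 38 genes with miR-183-5p over NC and 7 between the microRNA libraries, and the interval of HNRNPA1L2, 0.562 to 0.716, spans the 1.5-fold mark.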
